A study of Homo sapiens with 12 samples.

Results

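FXYD3, PHF19, ARHGAP31 and SRM are 4 genes, among 14599 with a named row, that were chosen by their measured log2 intensity, as lower with the histone deacetylase inhibitor entinostat both with and without MAPK pathway inhibitors, or lower when all drugs were combined. Cells of Hs695T, an established line from a human melanoma, were collected 24 h after treatment. The 12 arrays form 4 groups of 3. DMSO arrays are the vehicle control, and DT arrays are cells given 100 nM dabrafenib, a BRAF inhibitor, with 10 nM trametinib, a MEK inhibitor. E arrays are cells given 1 µM entinostat, and DTE arrays are cells given all 3 agents at those doses. All groups are this 1 line, grown in the same medium with serum. The array titles speak of biological replicates and the series description of technical triplicates, so every p-value covers only the spread between these arrays, and their number limits the precision.

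Entinostat blocks class I histone deacetylases, enzymes that take acetyl groups off histones and other proteins, and such inhibitors are known to lower many genes as well as raise others. The 4 genes belong to unrelated processes. FXYD3 encodes a small single-pass membrane protein that modulates the sodium pump, and PHF19 encodes a Polycomb-like protein that helps bring Polycomb repressive complex 2 (PRC2) to its target genes. ARHGAP31 encodes a GTPase-activating protein that turns off the small GTPases CDC42 and RAC1, and SRM encodes spermidine synthase, which makes the polyamine spermidine from putrescine.

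The deposited values are intensities, given below as log2, and each gene has 1 row. Most genes had a lower signal in cells given the MAPK inhibitors, and the median intensity per array was 50.6 to 57.6 in DMSO, 37.5 to 40.8 in DT, 48.3 to 51.6 in E and 33.3 to 39.9 in DTE. Because fewer cells and less RNA per cell cannot be told apart here, and the scaling between arrays is not stated, each difference is given on the deposited scale and again after quantile normalization, which forces the 12 arrays to a common distribution ("quantile"). Over all genes the median difference was -0.48 for DT minus DMSO, -0.20 for E minus DMSO, -0.23 for DTE minus DT, -0.54 for DTE minus E and -0.72 for DTE minus DMSO, and quantile normalization brought these to between -0.04 and 0.01. Of the lineage markers, SOX10 (9.96), S100B (11.49), ERBB3 (9.80) and PAX3 (8.60) had high log2 means in DMSO. The pigment genes TYR (3.81), TYRP1 (3.48) and MLANA (4.27) had low ones. A further pigment gene, PMEL (6.07), lay between, as did MITF (6.09), S100A1 (6.30) and EDNRB (5.86). No detection calls were used to say whether any of these are above background. The summed intensity of 10 epithelial markers was 526.5 to 588.5 in DMSO, 562.6 to 609.5 in E, 354.4 to 376.6 in DT and 340.1 to 423.4 in DTE, and that of 4 fibroblast markers was 124.9 to 136.7, 127.7 to 156.9, 79.9 to 92.0 and 109.5 to 125.3 in the same order, so neither sum was lower in E than in DMSO. The sum of 11 melanoma markers was lower, at 5020 to 5727 in DMSO, 2762 to 3149 in DT, 3290 to 3547 in E and 1905 to 1943 in DTE. Its part in the results was not tested. The 11 markers did not all move with their sum. In E minus DMSO 4 were called lower, 2 higher and 5 did not pass (quantile 3 lower and 3 higher). The 2 rises on the deposited scale were PMEL (1.07) and EDNRB (1.07). The 4 falls on that scale were ERBB3 (-2.34), SOX10 (-1.09), S100B (-0.57) and MLANA (-0.36).

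FXYD3 was lowest in the arrays with entinostat, with or without the MAPK inhibitors. Its log2 intensity was 9.59, 9.55 and 9.66 in the DMSO arrays, 8.79, 8.79 and 8.58 in DT, 6.76, 7.14 and 7.14 in E, and 6.44, 6.74 and 6.48 in DTE. On this scale the order was DMSO, DT, E, DTE, no group overlapped its neighbour, and the gap between the lowest E array (6.758) and the highest DTE array (6.742) was the narrowest. After quantile normalization every DTE array lay above every E array, and the DT and DMSO arrays overlapped. The group means were 9.60 ± 0.06 (SD, n = 3) in DMSO and 7.01 ± 0.22 in E, a 6.0-fold lower level in E, and DTE was 4.49-fold lower than DT (quantile 4.47-fold and 3.38-fold). These contrasts chose the gene and are given as a description only.

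PHF19 was lower with either treatment and, on the deposited scale, lowest with both. The DMSO arrays read 9.20, 8.94 and 9.17, the DT arrays 6.87, 7.07 and 6.69, the E arrays 6.42, 6.45 and 6.51, and the DTE arrays 5.90, 5.93 and 5.70. All 9 treated arrays lay below all 3 DMSO arrays, and no group overlapped another on that scale. In 70.9% of all genes every DTE array likewise lay below every E array. After quantile normalization the E and DTE arrays of PHF19 overlapped (DTE minus E 0.038). The mean fell from 9.10 ± 0.14 (SD, n = 3) in DMSO to 6.88 ± 0.19 in DT, a change tested below, and was 6.46 ± 0.05 in E and 5.84 ± 0.13 in DTE. E was 6.24-fold lower than DMSO (quantile 4.58-fold), while DTE was 2.05-fold lower than DT (quantile 1.66-fold), the smallest entinostat difference of the 4 genes in cells that also had the MAPK inhibitors.

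ARHGAP31 went in opposite directions with the separate treatments. It read 8.50, 8.33 and 8.28 in DMSO, 9.07, 9.13 and 8.96 in DT, 6.51, 6.75 and 6.51 in E, and 6.16, 6.23 and 6.02 in DTE. Every DT array lay above every DMSO array, and every array with entinostat lay below both. Its mean was 8.37 ± 0.11 (SD, n = 3) in DMSO, 9.05 ± 0.09 in DT, 6.59 ± 0.14 in E and 6.13 ± 0.11 in DTE. E was 3.44-fold lower than DMSO, and DTE was 7.56-fold lower than DT (quantile 2.52-fold and 5.98-fold).

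SRM had the same order of groups at the top and, on the deposited scale, no order at the bottom. After quantile normalization every DTE array lay above every E array. On the deposited scale the DMSO arrays read 11.01, 10.995 and 11.07, the DT arrays 11.71, 11.73 and 11.85, the E arrays 9.37, 9.69 and 9.63, and the DTE arrays 9.41, 9.69 and 9.48. The E and DTE arrays overlapped, with means of 9.56 ± 0.17 (SD, n = 3) and 9.53 ± 0.14, and both groups lay below all DMSO arrays (11.03 ± 0.04) and all DT arrays (11.77 ± 0.08). E was 2.75-fold lower than DMSO, and DTE was 4.72-fold lower than DT (quantile 2.30-fold and 3.84-fold).

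**Figure D1:**
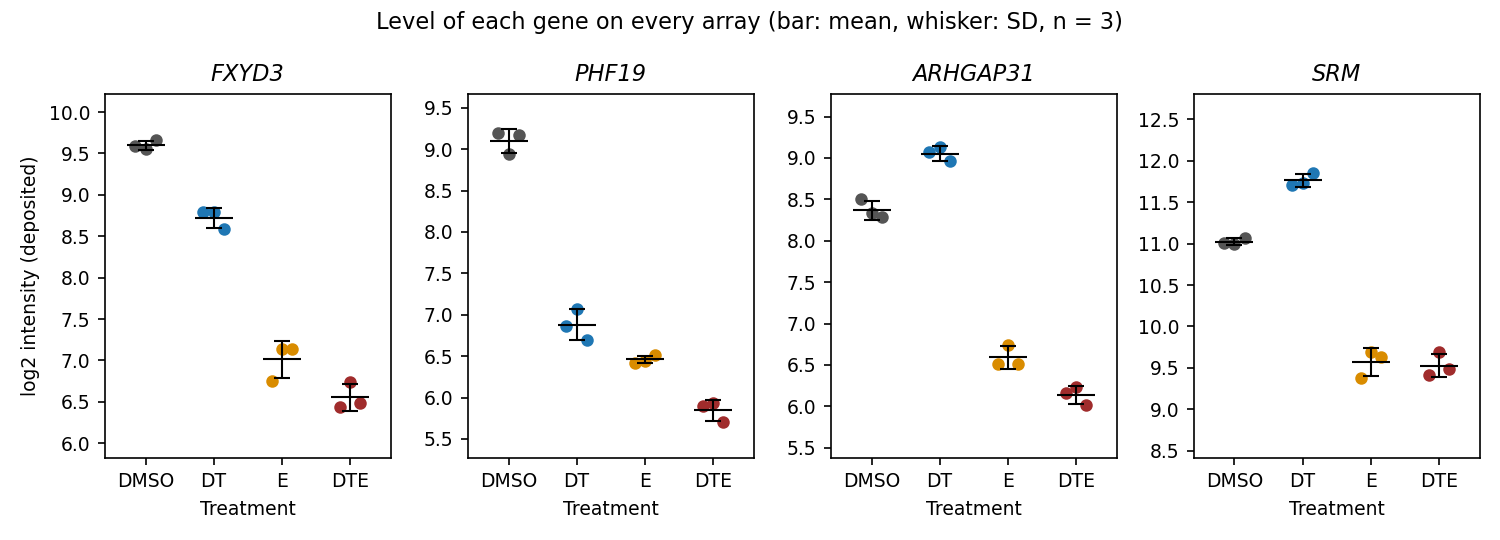
Log2 intensity of FXYD3, PHF19, ARHGAP31 and SRM on each of the 12 arrays by treatment, with 1 point per array, a bar for the group mean and whiskers for the SD (n = 3); each panel spans the same number of log2 units around its own centre. ARHGAP31 and SRM have their highest arrays in DT (means 9.05 and 11.77), whereas FXYD3 and PHF19 have theirs in DMSO (means 9.60 and 9.10).

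All 4 genes had every E array below every DMSO array and every DTE array below every DT array, as 43.2% and 44.0% of all genes did, and every DTE array below every DMSO array, as 72.4% did. In DT against DMSO 67.8% of all genes had every array lower and 3.34% every array higher, and in DTE against E 70.9% had every array lower.

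As a description of the choice, the 4 genes can be placed among all 14599. For E minus DMSO, in which 37.2% of all genes were called lower and 10.4% higher (quantile 21.1% and 18.5%), PHF19 had the 2nd lowest difference (-2.64 ± 0.12, limma standard error), FXYD3 the 3rd (-2.59 ± 0.12), ARHGAP31 the 27th (-1.78 ± 0.11) and SRM the 118th (-1.46 ± 0.11). For DTE minus DT, in which 40.6% of all genes were called lower (quantile 23.5%), ARHGAP31 had the 2nd lowest difference (-2.92 ± 0.11), SRM the 8th (-2.24 ± 0.11), FXYD3 the 9th (-2.17 ± 0.12) and PHF19 the 824th (-1.03 ± 0.12). For DTE minus DMSO, in which 74.3% were called lower (quantile 24.2%), PHF19 was 25th (-3.26 ± 0.12), FXYD3 41st (-3.05 ± 0.12), ARHGAP31 313th (-2.24 ± 0.11) and SRM 2180th (-1.497 ± 0.11). SRM in the combination was thus near the median of similarly bright genes, which was -1.19 in the brightest of 10 intensity bins, and its quantile difference was -0.45. The corresponding quantile differences for DTE minus DMSO were -2.16 for PHF19, -1.83 for FXYD3 and -1.07 for ARHGAP31.

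The comparison of DT with DMSO asks what BRAF and MEK inhibition did to these genes without entinostat. It was not named in their choice, but all its arrays entered the contrasts that chose them. A low DTE minus DT favours genes that read high in DT, and a low E minus DMSO favours genes that read high in DMSO. The p-values below are thus not independent of the choice. ARHGAP31 and SRM rose, and PHF19 fell. In DT minus DMSO 66.2% of all genes were called lower and 2.97% higher (quantile 13.9% and 15.1%), and all 4 genes passed (limma, Benjamini-Hochberg over 14599 genes). ARHGAP31 rose 1.60-fold, by 0.68 ± 0.11 on the log2 scale (adjusted p = 4.5e-05, quantile 1.51 with adjusted p = 1.8e-08), the 143rd largest rise. SRM rose 1.67-fold, by 0.74 ± 0.11 (adjusted p = 2.5e-05, quantile 1.49 with adjusted p = 5.4e-08), the 121st largest rise. The median difference of genes in the same intensity bin was -0.76 for ARHGAP31 and -0.74 for SRM, so both stood further from similarly bright genes than from their own DMSO level.

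PHF19 fell by 2.22 ± 0.12 on the log2 scale, or 4.67-fold (limma adjusted p = 3.1e-10), and fell after quantile normalization as well (-1.43, adjusted p = 8.8e-08). Its intensity bin had a median of -0.76. FXYD3 was 1.84-fold lower on the deposited scale (-0.88 ± 0.12, adjusted p = 1.4e-05), close to the median of -0.78 in its intensity bin, and after quantile normalization it did not pass and its DT and DMSO arrays overlapped (-0.074, adjusted p = 0.65). The MAPK inhibitors alone thus gave 2 rises that kept their direction on both scales, 1 fall that did, and 1 fall, of FXYD3, that passed on the deposited scale and with each array's median subtracted (-0.33, adjusted p = 0.015) but not after quantile normalization.

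**Figure D2:**
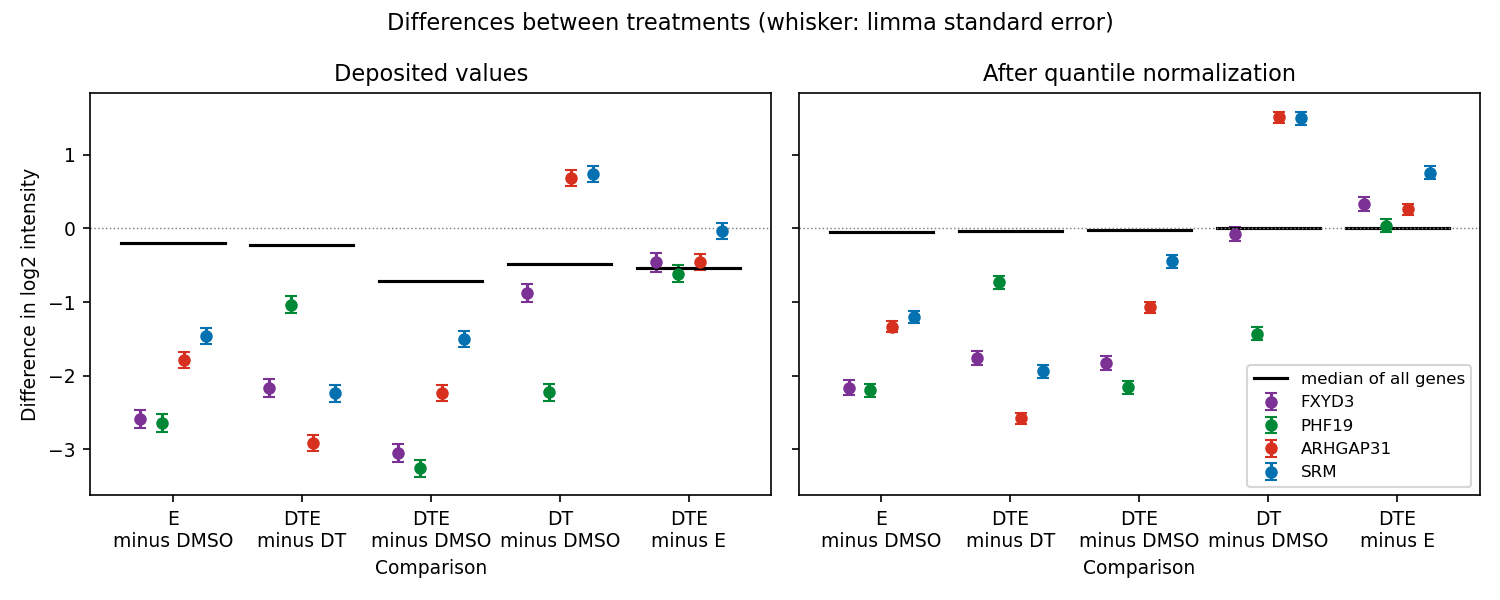
Difference in log2 intensity for the 4 genes in 5 comparisons, on the deposited scale (left) and after quantile normalization (right), with whiskers for the limma standard error and a black line for the median of all 14599 genes. In DT minus DMSO the ARHGAP31 and SRM points lie above 0 on both scales (0.68 and 0.74, quantile 1.51 and 1.49), and in DTE minus E the points lie at or below 0 on the deposited scale and at or above 0 after quantile normalization.

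The same inhibitors were compared in cells that also had entinostat, as DTE minus E, a contrast that shares no array with DT minus DMSO. All arrays of DTE minus E also entered the contrasts that chose the genes, so its p-values are not independent of that choice. On the deposited scale 72.6% of all genes were called lower and 0.644% higher (quantile 11.6% and 11.4%), and FXYD3 (-0.46 ± 0.12, limma adjusted p = 0.0037), PHF19 (-0.62 ± 0.12, adjusted p = 0.00022) and ARHGAP31 (-0.46 ± 0.11, adjusted p = 0.0015) were called lower, at 0.07, -0.08 and 0.08 from the median of all genes. After quantile normalization the direction flipped for FXYD3 (0.33, adjusted p = 0.029) and ARHGAP31 (0.26, adjusted p = 0.027), and PHF19 did not pass (0.038, adjusted p = 0.81). SRM did not pass on the deposited scale (-0.037 ± 0.11, adjusted p = 0.77, 95% interval -0.27 to 0.20) and rose after quantile normalization (0.76, adjusted p = 5.8e-05). With each array's median subtracted, SRM also rose (0.56, adjusted p = 0.00081), and the others did not pass.

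Set side by side, the MAPK inhibitor difference for ARHGAP31 was 0.68 without and -0.46 with entinostat (quantile 1.51 and 0.26), and for SRM 0.74 and -0.037 (quantile 1.49 and 0.76). For PHF19 it was -2.22 without and -0.62 with entinostat (quantile -1.43 and 0.038), and for FXYD3 -0.88 and -0.46 (quantile -0.074 and 0.33). Adding the separate DT and E differences to the DMSO mean gives a level of 4.24 for PHF19, against 5.84 measured in DTE, and 7.27 for ARHGAP31, against 6.13 measured. The same sum is 10.31 for SRM, against 9.53 measured, and 6.14 for FXYD3, against 6.55. The gap between sum and measurement was 1.61 for PHF19, 0.42 for FXYD3, -0.78 for SRM and -1.14 for ARHGAP31 (quantile 1.47, 0.40, -0.74 and -1.25), beside a median of -0.05 over all genes. These gaps are built from the contrasts that chose the genes and were not tested. The summed level of 4.24 for PHF19 is near the DMSO mean of the low marker MLANA (4.27). Whether the arrays can read a level that low above background was not tested.

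Of the 434 genes that rose in DT minus DMSO, 54 (12.4%) were also higher in DTE minus E, 112 (25.8%) were lower and 268 (61.8%) did not pass. Over all 14599 genes, 0.644% were higher and 72.6% lower in DTE minus E, and 3903 genes did not pass. The 54 were 57.4% of the 94 genes that rose in DTE minus E, and the 112 were 1.06% of the 10602 that fell. ARHGAP31 was among the 112 and SRM among the 268. After quantile normalization 2205 genes rose in DT minus DMSO, of which 901 (40.9%, and 54.1% of 1664) were higher in DTE minus E, 56 (2.54%, and 3.29% of 1700) were lower and 1248 (56.6%) did not pass. The quantile shares over all genes in DTE minus E were 11.4% higher and 11.6% lower, and 11235 genes did not pass.

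**Figure D3:**
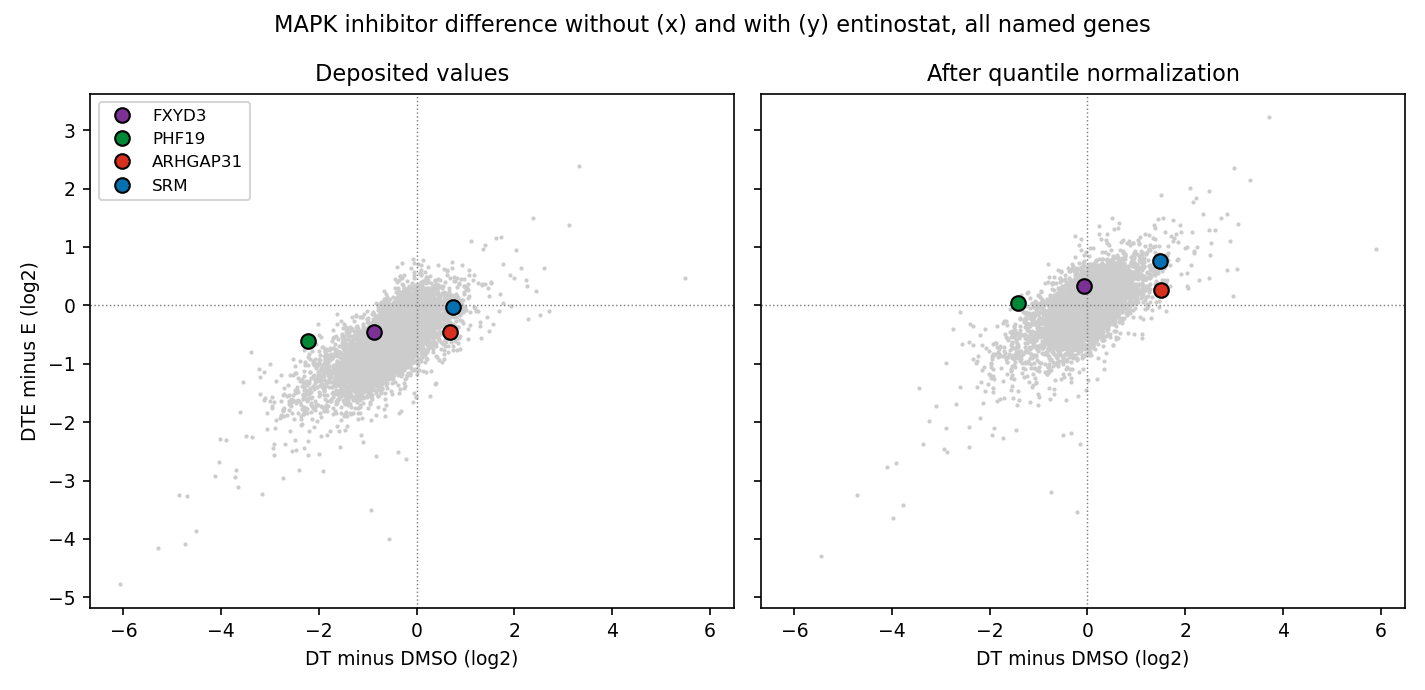
MAPK inhibitor difference in log2 intensity without entinostat (DT minus DMSO, horizontal) and with it (DTE minus E, vertical) for all 14599 genes as grey points, on the deposited scale (left) and after quantile normalization (right). PHF19 lies left of the vertical line at 0 and ARHGAP31 and SRM right of it on both scales, at -2.22, 0.68 and 0.74 on the deposited one.

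Genes with the most similar patterns were found by the root mean square distance between their 12 log2 values, each taken from its own DMSO mean. FXYD3 was nearest to ZNF827, a zinc finger gene (0.23), HCFC1, which encodes a transcriptional coregulator (0.23), JADE2 (0.31), IGF2BP1, which encodes an RNA-binding protein (0.32), and SERTAD4 (0.34). Of these, IGF2BP1 ranked 6th and SERTAD4 7th after quantile normalization. PHF19 was nearest to the zinc finger gene ZNF436 (0.21), PRR7-AS1 (0.33), UNG, the uracil-DNA glycosylase gene (0.35), RHOJ, a small GTPase gene related to CDC42 (0.39), and SERTAD4 (0.42). The same 5 genes were nearest to PHF19 after quantile normalization. In ZNF436 the differences were -2.13 for DT minus DMSO, -2.38 for E minus DMSO and -1.03 for DTE minus DT, beside -2.22, -2.64 and -1.03 in PHF19.

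ARHGAP31 and SRM were close to each other (0.42), and SRM was the 4th nearest of all genes to ARHGAP31 and the 1st after quantile normalization. The others near ARHGAP31 were the retinol metabolism gene DHRS3 (0.34), CMTM5 (0.37), the DNA sensor gene AIM2 (0.40) and PLXNB3, which encodes a semaphorin receptor (0.43). Of these, AIM2 ranked 11th and PLXNB3 9th after quantile normalization. SRM was nearest to PLXNB3 (0.15), RTP4 (0.22), the long non-coding RNA FENDRR (0.23), ZEB2, which encodes a transcription factor of the neural crest (0.25), and MAP2K6, a kinase of the p38 pathway (0.28). PLXNB3 and RTP4 stayed 1st and 2nd after quantile normalization, whereas ZEB2 ranked 6th, MAP2K6 12th and FENDRR 14th. PLXNB3 differed by 0.61 in DT minus DMSO, -1.39 in E minus DMSO and -2.15 in DTE minus DT, beside 0.74, -1.46 and -2.24 in SRM. The pair least alike was PHF19 and SRM (1.83).

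ARHGAP31 and SRM were the closest pair of the 4 by this distance, against 0.69 for FXYD3 and PHF19, and to set their promoters beside the others the 250 bases before the start site of each gene are shown, read from RefSeq (GRCh38.p14) and written 5′ to 3′ on the gene's strand. Capitals mark letters that match, on either strand, one of 6 short motifs chosen after the sequences were seen: TATAAA for the TATA box, CCAAT for the CCAAT box, GGGCGG for the GC box, CACGTG for the E-box, CCGGAA for ETS factors and TGANTCA for AP-1. The arrays do not show which start site was in use, and PHF19 has a second listed start.
SRM, chr1:11060019-11060268, minus strand: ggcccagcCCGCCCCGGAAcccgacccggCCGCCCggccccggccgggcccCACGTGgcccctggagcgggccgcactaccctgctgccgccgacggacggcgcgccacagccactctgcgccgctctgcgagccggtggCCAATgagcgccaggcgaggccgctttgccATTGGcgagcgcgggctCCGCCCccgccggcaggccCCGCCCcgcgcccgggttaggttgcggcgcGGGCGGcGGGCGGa
ARHGAP31, chr3:119294133-119294382, plus strand: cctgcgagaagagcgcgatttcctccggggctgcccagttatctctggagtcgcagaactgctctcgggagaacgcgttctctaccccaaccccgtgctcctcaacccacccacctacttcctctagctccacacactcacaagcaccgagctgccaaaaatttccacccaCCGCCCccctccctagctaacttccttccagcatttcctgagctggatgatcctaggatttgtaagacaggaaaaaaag
PHF19, chr9:120868912-120869161, minus strand: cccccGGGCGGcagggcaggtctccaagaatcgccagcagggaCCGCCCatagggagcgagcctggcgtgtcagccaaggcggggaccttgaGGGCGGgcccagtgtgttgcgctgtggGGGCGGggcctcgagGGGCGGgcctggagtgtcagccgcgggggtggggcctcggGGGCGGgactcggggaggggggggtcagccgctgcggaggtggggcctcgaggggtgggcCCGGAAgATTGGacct
FXYD3, chr19:35117750-35117999, plus strand: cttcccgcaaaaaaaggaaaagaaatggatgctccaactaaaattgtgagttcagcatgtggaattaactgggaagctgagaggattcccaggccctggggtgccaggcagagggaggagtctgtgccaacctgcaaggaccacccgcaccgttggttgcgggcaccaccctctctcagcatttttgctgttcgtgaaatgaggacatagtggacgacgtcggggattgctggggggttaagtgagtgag

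The windows differed widely in composition. SRM had 82% G and C with 40 CpG sites, ARHGAP31 55.6% with 11, PHF19 75.6% with 21 at the start shown and 79.2% with 39 at its other start, and FXYD3 53.6% with 8, against medians of 58% and 11 over 35116 promoter windows. GGGCGG, the core of a GC box, occurred 6 times in SRM, 6 and 4 times in the PHF19 windows and 1 time in ARHGAP31, and 42.6% of all windows held it at least once. CCAAT occurred 2 times in SRM and 1 time in each PHF19 window (32.0% of all windows), and CCGGAA, an ETS core, 1 time in SRM, where it overlaps a GGGCGG match by its end base, and 1 time in the PHF19 window shown (14.5%). CACGTG, the E-box read by MYC and MITF among others, was found in SRM (6.34% of all windows). None of these 6 motifs was in the FXYD3 window, and neither TATAAA (10.7%) nor TGANTCA (6.57%) was in any of the 5 windows. A match is a description of letters and says nothing about binding.

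PHF19 was then set beside its own complex. Of 17 listed PRC2 subunits and partners, 11 besides PHF19 had a named row. After entinostat alone 7 of the 11 fell and 4 did not pass, with a median of -0.35 against -0.20 over all genes, in which 37.2% were called lower. After quantile normalization 2 were lower and 4 higher, beside 21.1% and 18.5% of all genes. The falls were led by PHF1, which encodes another Polycomb-like protein (-0.92 ± 0.12, limma adjusted p = 9.2e-06, quantile -0.48), and RBBP4, a histone-binding subunit (-0.84 ± 0.11, quantile -0.47). EZH2, the methyltransferase of the complex, did not pass on the deposited scale (-0.035 ± 0.10, adjusted p = 0.81) and was 0.35 higher after quantile normalization, and MTF2, the other Polycomb-like gene, followed it (-0.16 ± 0.10, adjusted p = 0.22, quantile 0.25). PHF19 was at -2.64, a value that chose it, so its place below the 11 is no finding.

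After the MAPK inhibitors alone all 11 of these PRC2 genes fell on the deposited scale, where 66.2% of all genes did, with a median of -0.92 against -0.48. After quantile normalization 4 were lower and 1 higher, beside 13.9% and 15.1% of all genes. EZH2 fell by 1.52 ± 0.10 (limma adjusted p = 4.9e-09, quantile -0.73) and MTF2 by 1.29 ± 0.10 (quantile -0.49), both less than PHF19. The low E minus DMSO that chose PHF19 favours a high reading in DMSO, so its place below them is no finding. In DTE minus DT, EZH2 rose by 0.43 ± 0.10 (adjusted p = 0.0023, quantile 0.89), whereas PHF19 was 1.03 lower, in a contrast used to choose it. Of 16 measured genes of the related complex PRC1 and the H3K27 demethylases, 12 fell and 2 rose in E minus DMSO, beside 37.2% and 10.4% of all genes (median -0.59 against -0.20). The quantile counts were 8 lower and 2 higher, beside 21.1% and 18.5%. The PRC1 genes CBX6 (-1.07 ± 0.10, quantile -0.69) and PCGF2 (-1.01 ± 0.11, quantile -0.59) were among the falls, and RYBP, a subunit of variant PRC1, rose (0.61 ± 0.09, quantile 1.03). The count of rises was 1 without DMSO array 2 or 3 or without any 1 of the E arrays.

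Among the drug's own targets, HDAC1 (0.00 ± 0.10, limma adjusted p = 0.998) and HDAC3 (-0.12 ± 0.10, adjusted p = 0.35) did not pass in E minus DMSO and were higher after quantile normalization (0.40 and 0.29), and HDAC2 fell by 0.39 ± 0.11 on the deposited scale alone (quantile -0.06). Of 16 class I deacetylases and partner genes, 11 fell and 5 did not pass, beside 37.2% of all genes lower (median -0.41 against -0.20). The quantile counts were 4 lower and 4 higher, a split near the 21.1% and 18.5% of all genes. The corepressor scaffold gene SIN3A (-1.27 ± 0.11, quantile -0.89) and the remodeller gene CHD3 (-1.25 ± 0.11, quantile -0.90) fell most.

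FXYD3 was set beside its own family, though its entinostat difference (-2.59) chose it and its place below its relatives there is no finding. The list held 17 FXYD, sodium pump and related calcium pump regulator genes, and 7 besides FXYD3 had a named row, with no sodium pump subunit among them. After entinostat alone 3 of the 7 fell and 1 rose, beside 37.2% and 10.4% of all genes (median -0.31 against -0.20). The quantile counts were 1 lower and 1 higher, beside 21.1% and 18.5% of all genes. FXYD5, which encodes dysadherin, fell by 0.83 ± 0.11 (limma adjusted p = 8.2e-06, quantile -0.48). FXYD1, which encodes phospholemman, fell by 0.34 ± 0.12 and FXYD6 by 0.31 ± 0.12, neither of which passed after quantile normalization (-0.11 and -0.07), and FXYD7 rose by 0.30 ± 0.11 (quantile 0.50). These small calls rest on single arrays: the count of falls was 1 without DMSO array 1, without DMSO array 3 or without E array 1, and FXYD7 did not pass without DMSO array 2, DMSO array 3, E array 1 or E array 2. After the MAPK inhibitors 5 of the 7 fell and 2 did not pass, beside 66.2% of all genes lower (median -0.46 against -0.48), with FXYD5 lowest (-1.66 ± 0.11, quantile -0.90) and the only 1 lower after quantile normalization.

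ARHGAP31 was compared with 47 other measured genes of the RAC1 and CDC42 switch, which holds GTPase-activating proteins that turn these GTPases off, exchange factors that turn them on, and their relatives and effectors. RAC1 and CDC42 themselves were not analysed here. After entinostat alone 21 of the 47 fell and 9 rose, beside 37.2% and 10.4% of all genes (median -0.24 against -0.20). The quantile counts were 8 lower and 15 higher, beside 21.1% and 18.5% of all genes. RHOJ fell by 1.93 ± 0.10 (limma adjusted p = 1.2e-09, quantile -1.51) and was the lowest of the 47. The ARHGAP31 value of -1.78 chose that gene and is not compared with them. The exchange factor gene ARHGEF6 fell by 1.09 ± 0.09 (quantile -0.73). ARHGAP32 (0.15 ± 0.11, adjusted p = 0.28, quantile 0.55) and ARHGAP33 (-0.29 ± 0.14, adjusted p = 0.10, quantile -0.11), relatives of ARHGAP31, did not pass on the deposited scale. Among the rises were the exchange factor genes DOCK10 (1.40 ± 0.11, quantile 1.52) and VAV3 (0.93 ± 0.13, quantile 0.91) and the GTPase-activating gene ARHGAP29 (1.23 ± 0.11, quantile 1.38).

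After the MAPK inhibitors 35 of the 47 fell and 3 rose, beside 66.2% and 2.97% of all genes (median -0.56 against -0.48). Quantile normalization gave 11 lower and 15 higher, beside 13.9% and 15.1%. The rises were CDC42EP4, a CDC42 effector (0.53 ± 0.12, limma adjusted p = 0.00081, quantile 1.17), SRGAP1, a GTPase-activating gene (0.48 ± 0.11, adjusted p = 0.00094, quantile 1.30), and DOCK10 (0.31 ± 0.11, adjusted p = 0.018, quantile 0.80). ARHGAP31, at 0.68, lay above all 47 on the deposited scale. A low DTE minus DT helped choose it and favours a high reading in DT, so this place is no finding. RHOJ was the lowest (-2.31 ± 0.10, quantile -1.51).

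SRM was set beside 21 other measured genes of polyamine synthesis, breakdown, transport and use. After entinostat alone 6 fell and 4 rose, beside 37.2% and 10.4% of all genes (median -0.20, as for all genes). The quantile counts were 1 lower and 8 higher, beside 21.1% and 18.5% of all genes. Genes next to spermidine synthase in the pathway went both ways. ODC1, ornithine decarboxylase, which makes putrescine, rose by 0.97 ± 0.10 (limma adjusted p = 1.3e-06, quantile 1.38), and SMS, spermine synthase, rose by 0.30 ± 0.11 (adjusted p = 0.037, quantile 0.70). SAT1, which acetylates spermidine and spermine for breakdown and export, rose by 1.29 ± 0.11 (quantile 1.69), and AZIN2, an antizyme inhibitor, by 1.04 ± 0.14 (quantile 1.23). AMD1, which supplies the aminopropyl donor that spermidine synthase uses, fell by 0.53 ± 0.11 on the deposited scale alone (quantile -0.17). DHPS, which uses spermidine to make hypusine, fell by 1.24 ± 0.10 (quantile -0.81). The SRM value of -1.46 chose that gene and is not compared with them.

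After the MAPK inhibitors 15 of the 21 polyamine genes fell and 2 rose, beside 66.2% and 2.97% of all genes (median -0.58 against -0.48). After quantile normalization 5 were lower and 4 higher, beside 13.9% and 15.1%. AZIN2 (1.04 ± 0.14, limma adjusted p = 7.1e-06, quantile 1.61) and EIF5A2, a target of hypusine modification (0.61 ± 0.10, quantile 1.45), rose as SRM did. ODC1 fell by 0.39 ± 0.10 on the deposited scale but was 0.43 higher after quantile normalization, and SMS fell by 0.97 ± 0.11 (quantile -0.16, not passing). AMD1 (-1.10 ± 0.11, quantile -0.37) and SAT1 (-1.14 ± 0.11, quantile -0.36) fell on both scales.

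**Figure D4:**
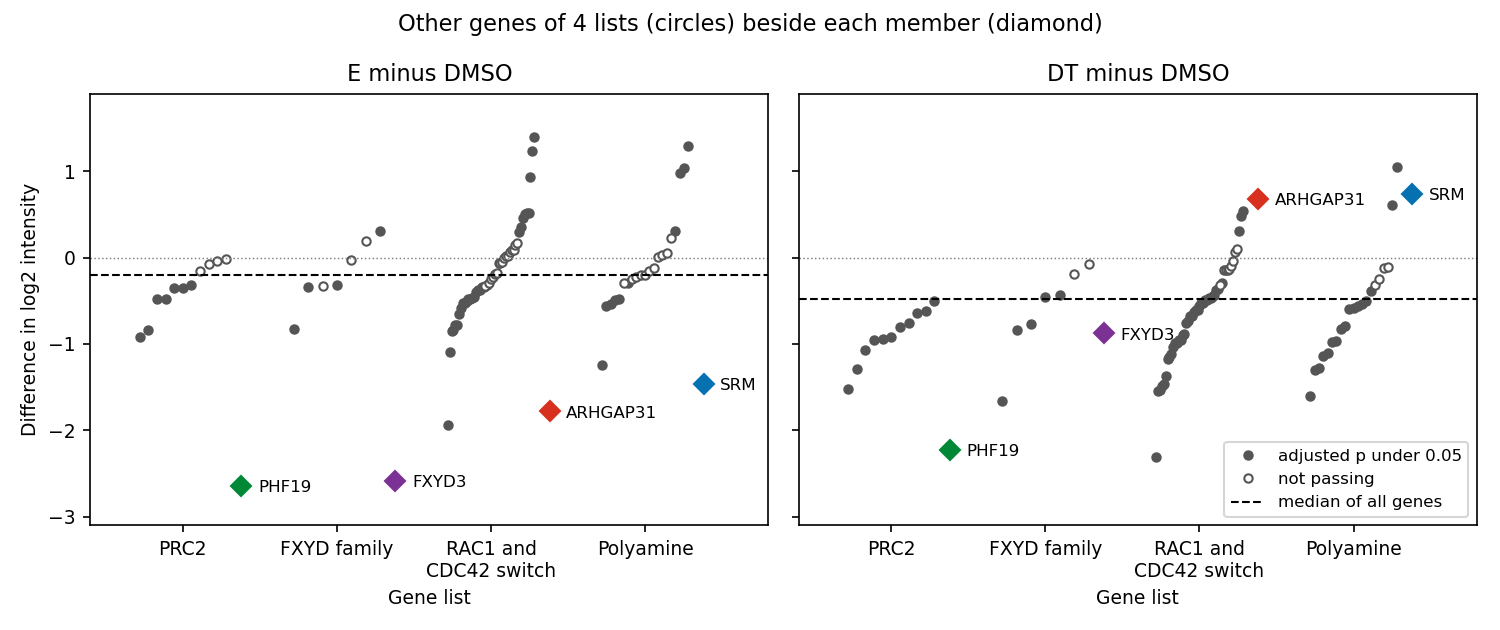
Difference in log2 intensity on the deposited scale for E minus DMSO (left) and DT minus DMSO (right) for the other measured genes of 4 lists (circles, sorted within a list, filled where the limma adjusted p was under 0.05) and for the member of each list described here (diamond), with a dashed line at the median of all genes. The diamonds in E minus DMSO (-2.64, -2.59, -1.78 and -1.46) are the values that chose the 4 genes, and in DT minus DMSO the ARHGAP31 diamond (0.68) lies above the other 47 genes of its list. The DT minus DMSO diamonds share arrays with the contrasts that chose the genes, so their places beside the circles are no finding.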

How the data were processed

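Per the labels, total RNA from Hs695T cells was hybridised to single-colour Affymetrix arrays after addition of ERCC spike-in RNA. Per the submitters' processing notes the authors used RMA in Transcriptome Analysis Console, and the deposited values are linear intensities. For the scaling between arrays, the genome build and the annotation, nothing more was given in the sources used here. Log2 of each value was taken. Of 29592 rows, 14783 had 1 gene symbol, which gave 14599 genes. For 169 genes with several rows the brightest was used, and rows without a symbol were not analysed here.

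Groups were compared with limma 3.58.1 in R 4.3.3 on all 12 arrays (8 residual and 7.68 prior degrees of freedom), with Benjamini-Hochberg adjustment over all genes and a threshold of 0.05. The 4 genes and all gene lists were chosen with earlier results of these data known. Named genes are the 4 genes, the listed genes and the 5 nearest patterns per gene. Alternatives were quantile normalization, median subtraction, leaving out the dimmest 40% of genes, trend and robust variance, mean or all probe sets, only the arrays compared, a replicate block, and leaving out each array. On simulated data for DT minus DMSO (14599 genes) the fit called 50% of genes changed by 0.5, 100% of those changed by 1 or 2, and 9 unchanged genes. Each change was given to 50 genes, whereas 66.2% of all genes were called lower in the data. The simulation therefore does not test the scaling between arrays. Arrays were not treated as paired, because the labels do not say that same-numbered arrays share a source. Across genes, with group means removed, r between same-numbered arrays ran from -0.106 to 0.121, which does not decide this.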

Additional observations from a re-analysis of the deposited data

Results flagged for a closer look

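These results are given because every array moved 1 way in 1 setting and the opposite way in the other, on the deposited scale. None of the differences between the settings was tested. The MAPK inhibitor difference without and with entinostat was 0.68 and -0.46 in ARHGAP31 (quantile 1.51 and 0.26), 1.04 and -0.57 in AZIN2 (quantile 1.61 and 0.28), 0.31 and -0.68 in DOCK10 (quantile 0.80 and 0.15), 0.61 and -0.63 in EIF5A2 (quantile 1.45 and 0.25), and 0.48 and -0.34 in SRGAP1 (quantile 1.30 and 0.51). After quantile normalization both values were thus above 0 in these 5 genes. The entinostat difference without and with the MAPK inhibitors was 1.04 and -0.57 in AZIN2 (quantile 1.23 and -0.10). It was -0.51 and 0.28 in CDC42EP1, a CDC42 effector (quantile -0.18 and 0.62), -0.40 and 0.23 in CDC42EP3, another effector (quantile -0.15 and 0.41), where the rise on the deposited scale did not pass (limma adjusted p = 0.118), and -0.46 and 0.30 in SRGAP2, a GTPase-activating gene (quantile -0.13 and 0.65). After quantile normalization the first value did not pass in these last 3 genes (adjusted p = 0.103, 0.242 and 0.133), nor the second in AZIN2 (0.436). For the MAPK inhibitor difference with entinostat, the quantile value did not pass in DOCK10 (adjusted p = 0.247) or EIF5A2 (0.0563).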

How the results depend on the processing

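Scaling between arrays was the choice that moved the results. For DT minus DMSO, FXYD3 did not pass after quantile normalization (-0.074). For DTE minus E, quantile normalization gave 0.33 for FXYD3, 0.038 for PHF19, 0.26 for ARHGAP31 and 0.76 for SRM, and median subtraction 0.13, -0.020, 0.14 and 0.56. For E minus DMSO the quantile and median-subtracted values were -2.16 and -2.38 for FXYD3, -2.196 and -2.44 for PHF19, -1.33 and -1.58 for ARHGAP31, and -1.20 and -1.25 for SRM. For DTE minus DT they were -1.76 and -1.92, -0.73 and -0.78, -2.58 and -2.67, and -1.94 and -1.99 in the same order. For DTE minus DMSO they were -1.83 and -2.25, -2.16 and -2.46, -1.07 and -1.43, and -0.45 and -0.70. The cause was not tested.

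Genes called lower numbered 9660 for DT minus DMSO (2028 after quantile normalization, 3296 after median subtraction), 5424 for E minus DMSO (3082 after quantile normalization), 5933 for DTE minus DT (3430 and 3873), 10602 for DTE minus E (1700 and 3211) and 10840 for DTE minus DMSO (3530 and 4813).

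In the lists, quantile normalization and median subtraction gave 4 and 7 PRC2 genes lower in DT minus DMSO, with 1 higher after the former, and 2 and 4 lower in E minus DMSO, with 4 higher after the former. For the FXYD list they gave 1 and 2 lower in DT minus DMSO, with 1 higher after the latter, and 1 and 1 lower in E minus DMSO, with 2 higher after the latter. For the RAC1 and CDC42 list they gave 11 and 18 lower and 15 and 12 higher in DT minus DMSO, and 8 and 13 lower in E minus DMSO, with 15 higher after the former. For the polyamine list they gave 5 and 7 lower and 4 and 5 higher in DT minus DMSO, and quantile normalization gave 1 lower and 8 higher in E minus DMSO. For the deacetylase list in E minus DMSO, quantile normalization gave 4 lower and 4 higher, and median subtraction 2 higher. Over all genes, quantile normalization gave 13.9% lower and 15.1% higher in DT minus DMSO, and 21.1% and 18.5% in E minus DMSO. No share of all genes after median subtraction is set beside the list counts, so those counts are not read as results about the lists.

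Leaving out 1 array at a time gave -0.133 to 0.024 for SRM in DTE minus E, above 0 without E array 2 or DTE array 1 (0.024 and 0.021). In E minus DMSO it gave 1 to 4 FXYD-list genes lower and 0 to 1 higher, and 1 to 2 PRC1 genes higher. Genes called lower ranged from 8410 to 9520 for DT minus DMSO and from 4515 to 5582 for E minus DMSO. The labels do not say that same-numbered arrays share a source, so they were not treated as paired. The lowest r between them was -0.106, which does not decide whether they are. As a hint from the data, 9 of 12 arrays were closest to their own number, and the median r was 0.032 for the same number against -0.011 for other pairs. With the replicate block, the DT minus DMSO differences stayed at -0.88 for FXYD3, -2.22 for PHF19, 0.68 for ARHGAP31 and 0.74 for SRM, 9775 genes were lower, and no call for the 4 genes changed. The number of arrays, and the lack of detection calls, limit what dim genes can show.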
